A study of Mus musculus with 6 samples.

Results

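Cartilage of the growth plate has no blood vessels of its own, and 10 genes of the response to low oxygen and of glucose use were followed in the proximal tibial epiphysis of Longshanks and Control mice. They were chosen by name, as the rows of the deposited table whose Ensembl identifiers carry the symbols *Hif1a*, *Epas1*, *Egln3*, *Slc2a1*, *Pfkfb3*, *Pgk1*, *Ldha*, *Vegfa*, *Bnip3* and *Ankrd37*, and all 10 were found among the 47729 genes of the table. The choice was made with earlier results of these data known, so the 10 are not a set picked blind to them. RNA came from 3 LS1 mice and 3 Control mice, all 14 days old and from different families of generation F13, and each library holds both proximal epiphyses of 1 mouse. LS1 is a Longshanks line bred over generations for tibiae that are long for the body mass, and Control is the line bred at random beside it (strain label "Control (ICR)"). No mouse was treated. The labels name no engineered allele in either group. The lines differ by their breeding history, and a difference between them cannot be assigned to any 1 locus. The samples were whole epiphyses, from the joint cartilage through the bony centre and the growth plate to the metaphysis, labelled as bone, cartilage and marrow, so cartilage is only part of each library. In such bulk RNA, fewer cells of a type and less RNA per cell cannot be told apart.

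Cells sense low oxygen through the hypoxia-inducible factors (HIF). Their alpha subunits, HIF-1α (*Hif1a*) and HIF-2α (*Epas1*), are made continuously and, when oxygen is plentiful, are hydroxylated by the EGLN enzymes and destroyed after binding the VHL protein. When oxygen is scarce they persist, pair with ARNT and bind promoters and enhancers at short motifs, where they raise the transcription of glucose transporters, glycolytic enzymes, VEGF-A and mitophagy proteins. In the growth plate, HIF-1α is needed for chondrocytes in the oxygen-poor centre of the cartilage to survive, and VEGF-A made by hypertrophic chondrocytes draws vessels into the tissue. Because the control of the alpha subunits acts mainly on the protein, their mRNA levels do not measure HIF activity.

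Each library held between 68803249 and 88745366 counted reads, with 68803249 to 76581954 in Control and 82227711 to 88745366 in LS1. In a principal component analysis, the leading component carried 35.1% of the variance, and LS1 3 lay there at -4.29, between the Control libraries (-41.5 to -22.1) and the other LS1 libraries (43.7 and 50.1). Sex is not given in the labels. *Xist*, the RNA that coats the inactive X chromosome of females, had normalized counts of 70194 to 71731 in Control 1, Control 2 and LS1 2. In Control 3, LS1 1 and LS1 3 it had 99.8 to 221, and there the summed level of 4 Y-linked genes was 19313 to 30556, against 90.5 to 149 in the first 3 libraries. The groups thus held unequal numbers of each kind, and within-kind values are given beside the results below. The chondrocyte markers were present in all 6 libraries, and none of the 8 was at 0. Their level was not the same in the lines: all 8 had a higher mean in LS1, by a median of 0.57 on the log2 scale, and their normalized counts summed to between 1870191 and 2162534 in Control and between 2415942 and 2921762 in LS1. *Col2a1* made up most of each sum, and its own groups overlapped. These marker values hold for whole epiphyses. Of these markers, the study's quantitative PCR on dissected growth plates of a later generation found *Hapln1*, *Matn3* and *Col2a1* not significantly different in LS1. For *Sox9* it found a trend to lower levels in LS1 and a significant decrease in the other Longshanks line. That direction is opposite to the higher LS1 mean of *Sox9* here.

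None of the 10 genes passed the test across all genes, limma on log2(normalized count + 1) with Benjamini-Hochberg adjustment at 0.05. DESeq2 and edgeR on the recovered reads also called 0 of the 10. Among all 19308 tested genes, limma called 0.0725% and DESeq2 called 2.51% of the 18171 genes to which it gave an adjusted p. Without adjustment, 5 of the 10 genes (*Slc2a1*, *Pgk1*, *Egln3*, *Bnip3* and *Hif1a*) had a p under 0.05, all 5 higher in LS1, by limma as well as by edgeR and DESeq2, where 12.9% of all genes had such a p by limma and 7.08% had it with LS1 higher. The 3 LS1 libraries lay above the 3 Control libraries for 4 of the 10 (*Slc2a1*, *Pgk1*, *Egln3* and *Hif1a*), while 19.2% of all genes had groups that did not overlap, 10.3% with LS1 higher. The mean of LS1 was the higher one for 9 of the 10 genes, and on the log2 scale for 50.7% of all tested genes. The median log2 fold change was 0.39 for the 10 genes and 0.0054 for all tested genes. Control 1, Control 2 and Control 3 and likewise LS1 1, LS1 2 and LS1 3 are given in this order below, and the normalized count of a gene is its read count divided by 1 size factor per library.

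**Figure D1:**
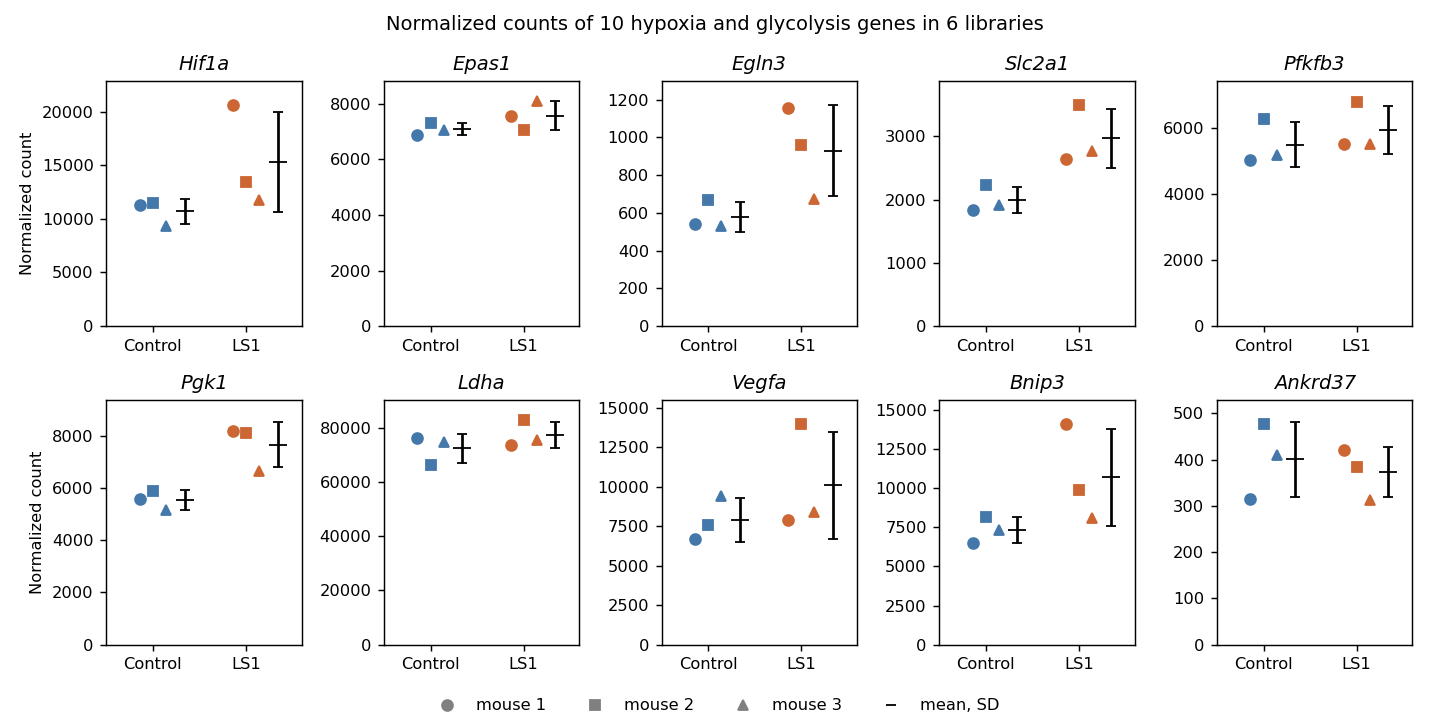
Normalized count of each of the 10 genes (y axis, from 0) in the 3 Control libraries (blue) and the 3 LS1 libraries (orange), 1 symbol shape per mouse number, with the mean and SD of each group as a black dash and bars. The groups separate for Hif1a, Egln3, Slc2a1 and Pgk1, while Ldha, Epas1, Pfkfb3 and Ankrd37 show overlapping groups with means within 8.01% of each other.

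The alpha subunits were the first members considered. *Hif1a* (ENSMUSG00000021109, chr12:73901375-73947530, plus strand, GRCm38) had normalized counts of 11319, 11475 and 9334 in Control and 20625, 13476 and 11786 in LS1. LS1 1 was far above the other 5 libraries, and LS1 3 was 311 above the highest Control library. The group means were 10709 ± 1194 in Control and 15296 ± 4692 in LS1 (SD, n = 3 each), a log2 fold change of 0.48 ± 0.19 (SE), with an adjusted p of 0.34 in limma. Without LS1 1 the fold change was 0.24, and without LS1 3 it was 0.64. An antisense gene, *Gm15283*, overlaps exons of *Hif1a* with a mean of 14.7 normalized counts, which is small beside the level of *Hif1a*. *Epas1* (ENSMUSG00000024140, chr17:86753700-86833410, plus strand) encodes the HIF-2α subunit, whose known targets in cartilage include genes of matrix breakdown. Its counts were 6897, 7331 and 7059 in Control and 7569, 7062 and 8111 in LS1, so the groups overlapped. The log2 fold change of *Epas1* was 0.09 ± 0.12 (limma adjusted p = 0.78), with a 95% interval from -0.17 to 0.36.

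*Egln3* encodes an oxygen-dependent prolyl hydroxylase that marks HIF-α for destruction and is itself a HIF target, which makes it a brake within the pathway. The gene (ENSMUSG00000035105, chr12:54178981-54203860, minus strand) was among the 2 lowest of the 10 per length, with *Ankrd37*. Its normalized counts were 541, 671 and 528 in Control and 1153, 957 and 673 in LS1. All 3 LS1 libraries were above the Control libraries, but LS1 3 exceeded Control 2 by only 2.73 normalized counts. The fold change was 0.65 ± 0.22 on the log2 scale (limma adjusted p = 0.29), and it was 0.48 when LS1 1 was left out.

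The 4 HIF targets with an unadjusted p under 0.05, and *Ldha* for contrast, are shown by the 250 bases upstream of their RefSeq start sites. The motif of HIF is a core of ACGTG or GCGTG, searched on both strands. Capitals mark each match, so CACGT and CACGC are matches on the minus strand, and CACGTG, which reads ACGTG on both strands, counts as 2 matches and is also the E-box of other factors. The windows, 5′ to 3′ on the strand of the gene in GRCm38.p6, are chr12:54203875-54204124 (minus) for *Egln3*, chr4:119108495-119108744 (plus) for *Slc2a1*, chrX:106186850-106187099 (plus) for *Pgk1*, chr7:46845554-46845803 (plus, the first of 2 starts) for *Ldha* and chr7:138909507-138909756 (minus) for *Bnip3*.
Egln3: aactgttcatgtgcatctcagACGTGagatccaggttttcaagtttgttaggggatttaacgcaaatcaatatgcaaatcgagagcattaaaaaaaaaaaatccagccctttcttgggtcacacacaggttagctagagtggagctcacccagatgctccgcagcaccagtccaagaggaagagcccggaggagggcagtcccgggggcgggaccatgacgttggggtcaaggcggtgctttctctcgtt
Slc2a1: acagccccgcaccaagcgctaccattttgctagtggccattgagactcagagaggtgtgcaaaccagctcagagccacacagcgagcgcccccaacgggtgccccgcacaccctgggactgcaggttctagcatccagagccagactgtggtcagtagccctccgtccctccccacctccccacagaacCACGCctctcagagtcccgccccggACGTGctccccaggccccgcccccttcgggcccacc
Pgk1: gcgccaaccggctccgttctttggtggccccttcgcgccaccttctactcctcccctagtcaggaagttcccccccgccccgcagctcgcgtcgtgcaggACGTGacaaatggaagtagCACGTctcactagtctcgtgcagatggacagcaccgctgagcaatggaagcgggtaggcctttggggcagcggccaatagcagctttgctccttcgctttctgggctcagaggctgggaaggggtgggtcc
Ldha: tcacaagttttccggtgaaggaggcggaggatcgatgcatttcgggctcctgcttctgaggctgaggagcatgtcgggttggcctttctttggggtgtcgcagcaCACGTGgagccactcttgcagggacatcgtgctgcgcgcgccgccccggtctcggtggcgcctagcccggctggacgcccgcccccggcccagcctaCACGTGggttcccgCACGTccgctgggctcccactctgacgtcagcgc
Bnip3: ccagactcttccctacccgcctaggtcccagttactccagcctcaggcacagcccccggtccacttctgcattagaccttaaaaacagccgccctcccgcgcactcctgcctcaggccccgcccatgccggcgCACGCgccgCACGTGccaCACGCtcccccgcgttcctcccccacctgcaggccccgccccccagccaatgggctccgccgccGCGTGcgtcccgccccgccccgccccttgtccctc
*Egln3* had 1 match in its window, *Slc2a1* and *Pgk1* had 2 each, and *Ldha* and *Bnip3* had 5 each. Promoter windows were matched by symbol for 9 of the 10 members, *Epas1* being the exception, 12 windows in all since *Vegfa*, *Ldha* and *Pfkfb3* have 2 starts each. A motif was in 11 of the 12 windows and in at least 1 window of each of the 9 genes, against 38.6% of all 32851 windows of that length in the RefSeq table. ACGTG alone was in 16.6% of all windows and GCGTG in 28.2%. The member windows were richer in G and C (median 64.6%) than all windows (median 52.4%), and the part of base composition in the difference was not tested. The members were chosen by name as genes of the response to low oxygen and of glucose use. A larger share of HIF motifs among them follows from that choice and is not a separate result. The number of matches did not order the genes by their difference between the lines: *Ldha* and *Bnip3* had equally many and had log2 fold changes of 0.10 and 0.51. A match is a description of the letters and does not show that HIF binds there in this tissue.

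*Slc2a1* encodes GLUT1, the main glucose transporter of growth plate chondrocytes. The gene (ENSMUSG00000028645, chr4:119108711-119137983, plus strand) had normalized counts of 1826, 2222 and 1919 in Control and 2643, 3500 and 2760 in LS1. The groups were apart by more than the spread within Control, the lowest LS1 library being 421 above the highest Control library. The means were 1989 ± 207 and 2968 ± 465 (SD, n = 3 each), 49.2% higher in LS1, and the log2 fold change was 0.57 ± 0.16 with a 95% interval from 0.22 to 0.92. *Slc2a1* had the smallest adjusted p of the 10, 0.23 in limma and 0.052 in DESeq2, neither under 0.05. Within the *Xist*-high libraries the difference in mean log2 value was 0.80 (2 Control, 1 LS1) and within the *Xist*-low libraries 0.49 (1 Control, 2 LS1).

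*Pfkfb3* encodes the enzyme that makes fructose 2,6-bisphosphate, the strongest activator of phosphofructokinase. It lies at chr2:11471433-11554077 on the minus strand (ENSMUSG00000026773) and had normalized counts of 5014, 6261 and 5183 in Control and 5512, 6759 and 5505 in LS1. Mouse 2 was the highest in each group and the groups overlapped, with a log2 fold change of 0.11 ± 0.14 (limma adjusted p = 0.78).

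*Pgk1*, phosphoglycerate kinase, makes the first ATP of glycolysis and is X-linked (ENSMUSG00000062070, chrX:106187100-106203699, plus strand). Its normalized counts were 5569, 5904 and 5162 in Control and 8211, 8125 and 6668 in LS1. Every LS1 library was above every Control library, by 764 or more. The means were 5545 ± 372 and 7668 ± 867 (SD, n = 3 each), 38.3% higher in LS1, with a log2 fold change of 0.46 ± 0.13 (limma adjusted p = 0.24). The difference was 0.50 among the *Xist*-high and 0.52 among the *Xist*-low libraries. A processed copy of *Pgk1* on chromosome 12, *Pgk1-rs7*, is identical to it over 1255 aligned bases, so reads between the pair may have been shared out. *Pgk1-rs7* had 1509, 1888 and 1864 normalized counts in Control and 2423, 1989 and 1644 in LS1, with overlapping groups. With the copies added, the log2 fold change of *Pgk1* was 0.40 ± 0.14 (limma adjusted p = 0.28) and the groups still did not overlap.

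*Ldha* encodes the lactate dehydrogenase subunit that turns pyruvate into lactate, the end of glycolysis where oxygen is low. It was by far the most abundant of the 10 per length (ENSMUSG00000063229, chr7:46841475-46855627, plus strand). The normalized counts were 76114, 66192 and 74800 in Control and 73649, 82871 and 75296 in LS1. The groups overlapped, with means of 72368 ± 5389 and 77272 ± 4918 (SD, n = 3 each). The log2 fold change was 0.10 ± 0.13 (limma adjusted p = 0.79), with a 95% interval from -0.19 to 0.38. Adding its 16 related copies in the table, which carried 4.0% of the summed values, gave 0.12.

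*Vegfa* encodes the growth factor that leads vessels to invade hypertrophic cartilage (ENSMUSG00000023951, chr17:46016993-46032369, minus strand). Its normalized counts were 6720, 7588 and 9429 in Control and 7910, 14016 and 8398 in LS1. Only LS1 2 was above the highest Control library. The log2 fold change was 0.32 ± 0.22 (limma adjusted p = 0.56), and without LS1 2 it was 0.06. Among the *Xist*-high libraries, which include LS1 2, the difference was 0.97, and among the *Xist*-low libraries it was -0.21.

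*Bnip3* encodes a protein of the outer mitochondrial membrane that sends mitochondria to autophagy, and lies at chr7:138890836-138909519 on the minus strand (ENSMUSG00000078566). Its normalized counts were 6516, 8162 and 7356 in Control and 14156, 9882 and 8091 in LS1. LS1 1 and LS1 2 were above all Control libraries and LS1 3 was just below Control 2. The means were 7345 ± 823 and 10709 ± 3116 (SD, n = 3 each) and the log2 fold change was 0.51 ± 0.19 (limma adjusted p = 0.31), or 0.29 without LS1 1. *Gm16439*, a copy with 98.9% identity over 564 bases, had 219, 266 and 269 normalized counts in Control and 539, 418 and 257 in LS1. With its copies added, *Bnip3* had a log2 fold change of 0.51.

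*Ankrd37* encodes an ankyrin-repeat protein of little-known function and is a known HIF target. It was the only member with a lower mean in LS1 (ENSMUSG00000050914, chr8:45996902-46005707, minus strand). The normalized counts were 315, 477 and 410 in Control and 421, 385 and 313 in LS1, and the groups overlapped. The log2 fold change was -0.09 ± 0.23 (limma adjusted p = 0.90), with a 95% interval from -0.60 to 0.41. Exons of *Ankrd37* overlap those of *Ufsp2* on the opposite strand, which had a mean of 3566 normalized counts. The strand setting of the counting is not given in the sources used here, so the values of *Ankrd37* are uncertain.

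**Figure D2:**
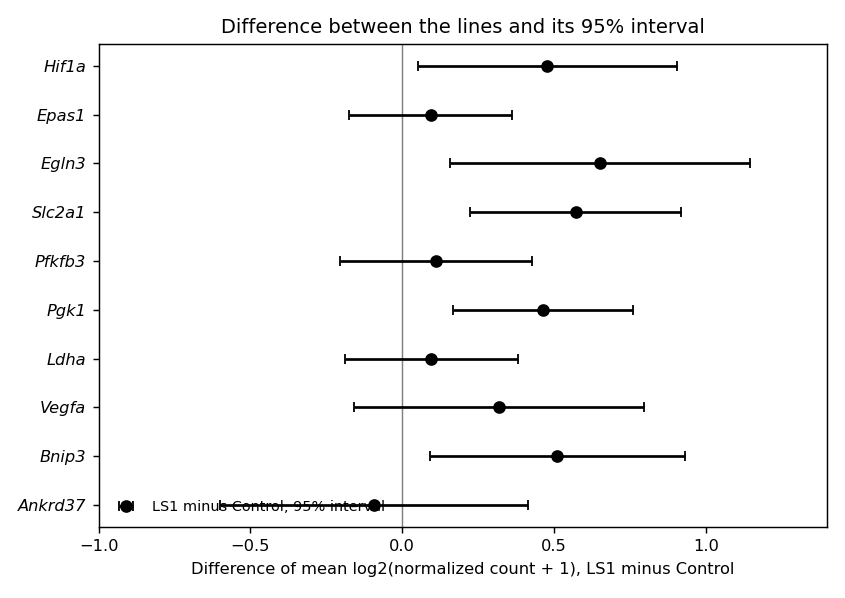
Difference between the lines for each gene (x axis, mean log2(normalized count + 1) in LS1 minus that in Control, points) with its 95% interval from limma (bars), 3 libraries per line. The unadjusted intervals lie above 0 for Hif1a, Egln3, Slc2a1, Pgk1 and Bnip3 and span 0 for the other 5 genes.

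The LS1 libraries were not alike in these genes. LS1 1 was the highest of the 6 libraries for *Hif1a*, *Egln3*, *Pgk1* and *Bnip3*, and it lay 0.95 above the Control mean in log2 units for *Hif1a* and for *Bnip3* and 1.00 above it for *Egln3*. LS1 2 was the highest for *Slc2a1*, *Vegfa*, *Ldha* and *Pfkfb3*, with *Slc2a1* at 0.82 and *Vegfa* at 0.84 above the Control mean. LS1 3 was the highest only for *Epas1*, and its median over the 10 genes was 0.15, against 0.25 in LS1 1 and 0.39 in LS1 2. The number of genes with an unadjusted p under 0.05 was 2 of 10 when LS1 1 was left out (*Slc2a1* and *Pgk1*), with 12.2% of all genes, and 4 or 5 of 10 by limma when any other library was left out, with 8.37% to 16.7% of all genes. By edgeR without Control 1 it was 2 of 10, with 10.4% of all genes. *Slc2a1* and *Pgk1* had such a p under all 18 alternative settings of the test. *Hif1a* no longer had it with the *Xist* level as a covariate, where 4 of the 10 genes and 12.3% of all genes did. Within the *Xist*-high and within the *Xist*-low libraries, 6 of the 10 genes were higher in LS1 in both (*Hif1a*, *Egln3*, *Slc2a1*, *Pfkfb3*, *Pgk1* and *Bnip3*), 1 was lower in both (*Ankrd37*), and 3 had opposite signs. Each of these comparisons has a group of only 1 library. The same counts were not made over all genes, so how common such agreement is was not tested.

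**Figure D3:**
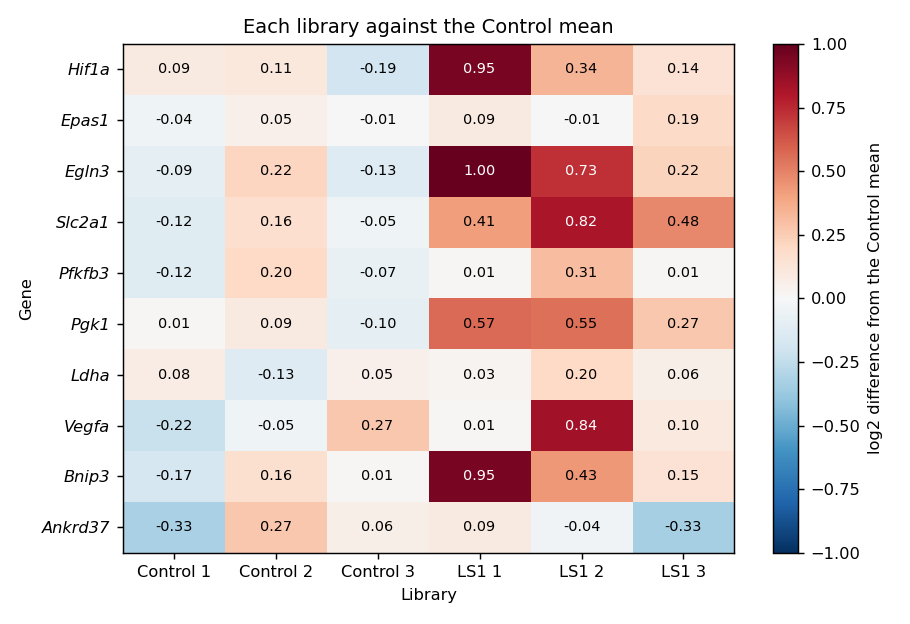
Difference of log2(normalized count + 1) in each library (columns) from the mean of the 3 Control libraries, for the 10 genes (rows), red for above and blue for below, with the value printed in each cell. LS1 1 stands out for Hif1a (0.95), Egln3 (1.00) and Bnip3 (0.95), LS1 2 for Slc2a1 (0.82) and Vegfa (0.84), and LS1 3 exceeds 0.25 only for Slc2a1 (0.48) and Pgk1 (0.27).

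Across the 6 libraries, 7 of the 45 pairs of members had a Pearson r over 0.8, the highest being *Pgk1* with *Egln3* (0.96), *Egln3* with *Bnip3* (0.96) and *Hif1a* with *Bnip3* (0.93). The lowest was *Ldha* with *Ankrd37* (-0.54). These are descriptions over 6 points that share the division into lines. The 5 genes outside the set whose profile was most like the mean z-score of the 10, among 9662 tested genes with a mean of at least 1000 normalized counts, were *Aida* (r = 0.98), *Cttnbp2nl* (0.98), *Gatm* (0.98), *Tns3* (0.98) and *Ogfod1* (0.98). With 6 libraries 167 genes had an r over 0.9, so these are 5 of many. *Gatm*, which encodes the first enzyme of creatine synthesis, had the widest range of them, with normalized counts of 3444, 4194 and 3512 in Control and 8934, 10624 and 5494 in LS1 (limma adjusted p = 0.12).

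Levels of different genes were compared per length, as recovered reads scaled to the exon length of GENCODE M21 and to the reads counted in the library (FPKM, the usual unit per kilobase of exon). In Control, *Ldha* was at 283 ± 18.5 FPKM (SD, n = 3), above 99.5% of the tested genes. *Bnip3* (42.0 ± 5.02) and *Pgk1* (32.0 ± 2.52) followed, then *Vegfa* (23.9 ± 3.99) and *Hif1a* (23.5 ± 2.85), whose ranges overlapped. *Epas1* (16.4 ± 0.66), *Pfkfb3* (9.41 ± 1.26) and *Slc2a1* (7.35 ± 0.84) came next, without overlap between neighbours. *Ankrd37* (3.37 ± 0.71) and *Egln3* (2.82 ± 0.42) were the lowest and overlapped. The level of *Pgk1* leaves out reads counted on its copies, which held 22.2% of the summed values. Its place below *Bnip3* in Control is therefore uncertain. In LS1 the order by mean began with *Ldha* (300.1 ± 21.2), *Bnip3* (60.7 ± 17.4) and *Pgk1* (43.9 ± 5.01), and *Hif1a* (33.3 ± 10.04) was above *Vegfa* (30.4 ± 10.4). *Slc2a1* (10.9 ± 1.78) was above *Pfkfb3* (10.1 ± 1.30) and *Egln3* (4.48 ± 1.15) above *Ankrd37* (3.11 ± 0.45). In LS1 the ranges of *Bnip3* and *Pgk1* overlapped, as did those of *Pgk1* with *Hif1a* and *Vegfa*, of *Hif1a* and *Vegfa*, of *Slc2a1* and *Pfkfb3* and of *Egln3* and *Ankrd37*, so none of these orders exceeded the spread.

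Several members have a close relative with the same task, and the FPKM ratio within a library cancels the scaling between libraries. The 6 pairs were picked after the values had been seen, and with 3 libraries per line the smallest exact two-sided permutation p is 0.1. GLUT1 against GLUT3 (*Slc2a1*/*Slc2a3*) had ratios of 0.84, 1.07 and 1.12 in Control and 1.51, 1.47 and 1.21 in LS1, with no overlap (exact permutation p = 0.1, 0.2 after Benjamini-Hochberg over the 6 pairs). *Bnip3* over *Bnip3l*, its mitophagy relative, gave 0.51, 0.82 and 0.74 in Control and 1.22, 0.93 and 0.82 in LS1, where LS1 3 was 0.006 above the highest Control library (exact permutation p = 0.1, adjusted 0.2). Thus *Bnip3l* mRNA was more abundant than that of *Bnip3* in every library but LS1 1.

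By the reads as counted, the ratio of *Ldha* to *Ldhb*, the subunit that favours the reverse reaction from lactate, was lower in LS1 without overlap. It was 8.69, 8.82 and 8.58 in Control and 7.88, 8.11 and 6.75 in LS1 (exact permutation p = 0.1, adjusted 0.2). Reads counted on the copies of *Ldha* are left out of it. With them, *Ldha* went from 73649 to 82059 normalized counts in LS1 1 and from 74800 to 76074 in Control 3. The separation of this ratio is therefore uncertain. *Hif1a* over *Epas1* was 1.43 ± 0.16 in Control and 1.92 ± 0.61 in LS1 (SD, n = 3 each, exact permutation p = 0.3, adjusted 0.3). *Egln3* over *Egln1*, the main HIF hydroxylase at normal oxygen, was 0.21 ± 0.03 and 0.28 ± 0.05 (exact permutation p = 0.2, adjusted 0.3). *Pfkfb3* over *Pfkfb4* was 1.77 ± 0.15 and 1.55 ± 0.26 (exact permutation p = 0.3, adjusted 0.3). None of the 6 differences passed 0.05, and none could have.

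**Figure D4:**
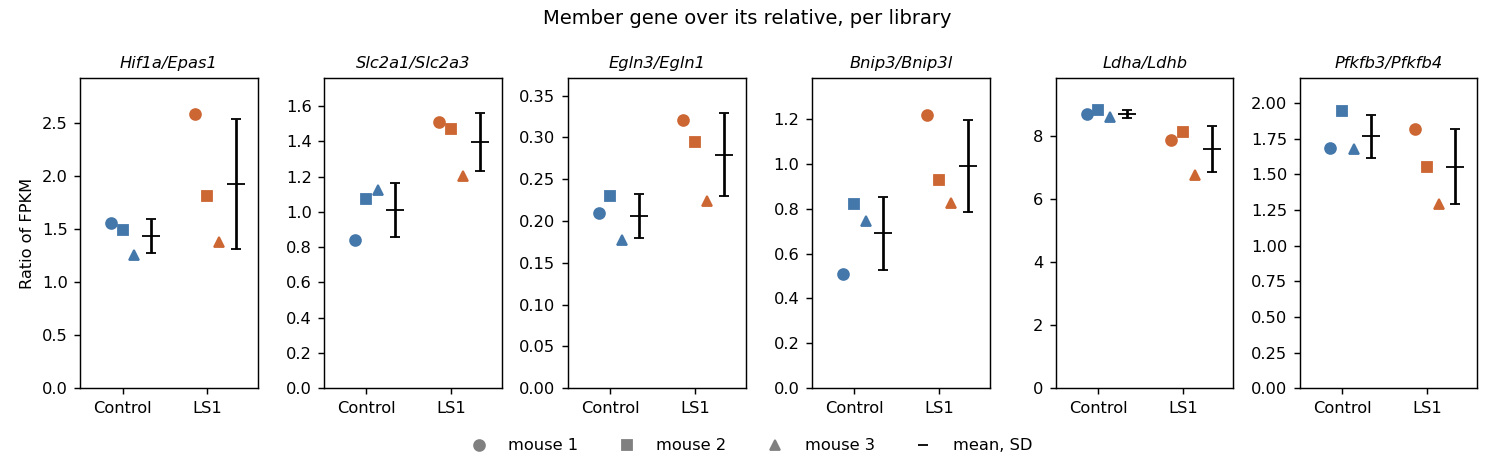
Ratio of the FPKM of a member gene to that of its relative (y axis, from 0) in the 3 Control (blue) and 3 LS1 (orange) libraries, 1 symbol shape per mouse number, with mean and SD in black. The groups do not overlap for Slc2a1/Slc2a3, Bnip3/Bnip3l (by 0.006) and Ldha/Ldhb, the last being lower in LS1. Reads counted on copies of Ldha are left out, so the separation of Ldha/Ldhb is uncertain.

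The other genes of the pathway were read from 4 lists with 70 different genes, all of them tested. None of the 70 had a limma adjusted p under 0.05, and edgeR and DESeq2 called 0 as well. Without adjustment 13 of the 70 had a p under 0.05 (11 higher and 2 lower in LS1). Among all genes 12.9% had one, and 7.08% had one with LS1 higher. Groups did not overlap for 15 of the 70 (14 higher and 1 lower in LS1). Among all genes the share was 19.2%, and 10.3% with LS1 higher. The median log2 fold change of the 70 was 0.03. Leaving out a library gave between 5 of 70 (without Control 3, with 9.01% of all genes) and 16 of 70 (without LS1 3, with 16.7% of all genes).

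In the glycolysis list (22 transporters, enzymes and lactate carriers), 12 genes had the higher mean in LS1 and 10 the lower, with a median of 0.02. Its most abundant gene per length, by the reads as counted, was *Pkm*, pyruvate kinase, at 156 ± 16.2 FPKM in Control and 155 ± 20.5 in LS1. *Gapdh*, of the same list, was at only 2.82 ± 0.31 FPKM in Control and 2.53 ± 0.54 in LS1. Related copies were searched for the 10 members only, so reads lost to copies of list genes were not tested. The 2 of 22 genes with an unadjusted p under 0.05 (12.9% of all genes) were *Aldoc*, an aldolase, and *Ldhb*, both higher in LS1. *Aldoc* had 1330, 2002 and 1676 normalized counts in Control and 2539, 2478 and 2042 in LS1 (log2 fold change 0.51 ± 0.18, limma adjusted p = 0.29). *Ldhb* had 4153, 3560 and 4136 against 4436, 4846 and 5292 (0.30 ± 0.13, limma adjusted p = 0.38).

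The list of HIF regulators held 14 genes, 5 of them higher and 9 lower in mean in LS1. Without adjustment 5 of the 14 had a p under 0.05 (3 higher and 2 lower in LS1), where 12.9% of all genes had one. Groups did not overlap for 4 of the 14 (3 higher and 1 lower in LS1), where 19.2% of all genes had such groups. The most abundant per length in Control was *Elob*, a subunit of the VHL ubiquitin ligase, at 55.6 ± 7.25 FPKM. In LS1 *Elob* was at 43.4 ± 4.98, below *Eloc* of the same ligase at 53.3 ± 7.95. *Cited2*, which competes with HIF-1α for the coactivator p300, had normalized counts of 2474, 2058 and 1721 in Control and 3520, 2908 and 2582 in LS1 (0.53 ± 0.18, limma adjusted p = 0.28). *Cul2*, the scaffold of that ligase, was at 3764, 3662 and 3122 against 6281, 4341 and 3890 (0.43 ± 0.18, limma adjusted p = 0.35). *Elob* was the one with all LS1 libraries lower, at 5542, 5490 and 6982 against 5197, 4087 and 4886 (-0.34 ± 0.15, limma adjusted p = 0.36), but its exons overlap those of *Srrm2* on the opposite strand, which had a mean of 36080. *Eloc*, the partner of *Elob*, at 0.48, and *Hif3a*, the third alpha subunit, at -0.69, also had an unadjusted p under 0.05 with overlapping groups, and were named after their values were seen. The subunits of 1 ligase complex had signs in both directions, though the negative value of *Elob* is uncertain. *Rbx1*, with overlapping groups, was at -0.14 and *Vhl* itself at -0.0048.

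Among 28 other HIF targets, 19 had the higher mean in LS1 and 9 the lower, with a median of 0.10. The most abundant per length in Control was *Fam162a*, a mitochondrial protein, at 109 ± 6.76 FPKM, with *Lox* close below it at 104 ± 6.84. In LS1 *Fam162a* was at 113 ± 7.91 and *Lox* was above it, at 135 ± 38.0. The 5 of 28 with an unadjusted p under 0.05 (12.9% of all genes) were all higher in LS1 (7.08% of all genes). Of these, *P4ha1* and *P4ha2* encode the catalytic subunits of the collagen prolyl hydroxylase, and *Ero1l* an oxidase of disulfide bond formation in the endoplasmic reticulum. *P4ha1* had normalized counts of 14526, 15924 and 15135 in Control and 24454, 18946 and 18446 in LS1 (0.43 ± 0.14, limma adjusted p = 0.27). *P4ha2* had 4937, 5345 and 4982 against 6814, 6348 and 6100 (0.34 ± 0.12, limma adjusted p = 0.30). *Ero1l* had 5088, 5330 and 5008 against 7993, 7457 and 5655 (0.44 ± 0.15, limma adjusted p = 0.28). These enzymes act in collagen folding and secretion. *Vldlr* (0.45) and *Car9* (0.76), a carbonic anhydrase, are the other 2 and were named after their values were seen. Exons of *Car9* overlap those of an antisense gene, *Gm12454*, which had a mean of 105 normalized counts. *Car9* itself had means of 350 in Control and 590 in LS1.

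The list of VEGF ligands and receptors held 9 genes beside *Vegfa*, 7 higher and 2 lower in mean in LS1 with a median of 0.13. *Nrp2* was the most abundant per length, at 44.4 ± 2.45 FPKM in Control and 44.7 ± 5.38 in LS1. *Nrp1*, a co-receptor of VEGF-A, was the 1 of 9 genes with an unadjusted p under 0.05 (12.9% of all genes). It had 6554, 6341 and 6453 normalized counts in Control and 12634, 8023 and 7237 in LS1 (0.48 ± 0.19, limma adjusted p = 0.32). The signalling receptors *Kdr* and *Flt1* had log2 fold changes of 0.14 and 0.13.

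**Figure D5:**
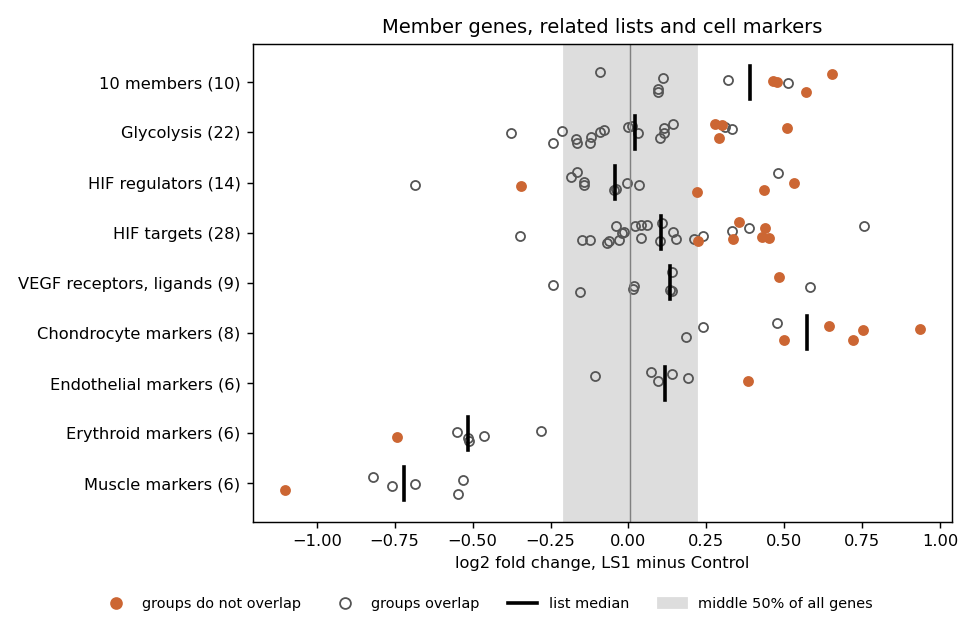
log2 fold change of LS1 against Control (x axis) for the 10 member genes, the 4 related lists and 4 lists of cell markers, 1 circle per gene, filled where the 3 LS1 and 3 Control libraries do not overlap, with the list median as a black line and the middle 50% of all tested genes in grey. The median is 0.39 for the 10 genes, 0.02 for glycolysis, 0.57 for chondrocyte markers, -0.51 for erythroid and -0.72 for muscle markers.

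Markers of the cell types in the epiphysis were read beside these genes. Of the 8 chondrocyte markers, 6 had an unadjusted p under 0.05 and 5 had groups that did not overlap, all higher in LS1, where the shares of all genes with LS1 higher were 7.08% and 10.3%. *Col9a1*, *Matn1* and *Hapln1*, which encode cartilage matrix proteins, had log2 fold changes of 0.72, 0.64 and 0.94 (limma adjusted p = 0.12, 0.14 and 0.16). *Col2a1*, the most abundant of them per length (2076 ± 187 FPKM in Control and 2450 ± 447 in LS1), was at 0.24. The sums of the 5 hypertrophic markers overlapped, at 868587 to 1278779 in Control and 1078438 to 1289993 in LS1. Yet *Col10a1*, the collagen of hypertrophic cells, was at 0.61 without overlap (limma adjusted p = 0.16), and *Mmp13* was at -0.37. *Mmp13* was the most abundant of them per length in Control (2528 ± 780 FPKM, *Col10a1* 1421 ± 130). In LS1 *Col10a1* was (2150 ± 54.7, *Mmp13* 1896 ± 267).

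Endothelial markers summed to 31075 to 34094 in Control and 31706 to 37066 in LS1, with *Pecam1*, the most abundant per length, at -0.11 and *Tek*, the angiopoietin receptor, at 0.39 without overlap. Erythroid markers summed to 265065 to 377978 in Control and 171914 to 295374 in LS1, with all 6 lower in mean, *Klf1* (-0.74, groups apart) and *Slc4a1*, the most abundant, at -0.52. Muscle markers summed to 8357 to 19920 in Control and 4078 to 11831 in LS1, with all 6 lower in mean, *Myh4* at -1.10 without overlap and *Acta1*, the most abundant, at -0.76. LS1 1, which had the highest *Hif1a*, *Egln3* and *Bnip3*, also had the lowest erythroid and muscle sums of the 6 libraries.

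Neutrophil, macrophage and osteoclast sums overlapped between the lines, but all 6 neutrophil and all 6 macrophage markers had the higher mean in LS1, with medians of 0.33 and 0.23 on the log2 scale. *Elane* (0.42) among the former and *C1qb* (0.59) among the latter had an unadjusted p under 0.05 with overlapping groups and were named after their values were seen, as was *Adgre1* (0.83). Neutrophil markers summed to 172668 to 238493 in Control and 231998 to 274072 in LS1 (*Ltf* 0.40 without overlap, *S100a8* 0.31), and macrophage markers to 27800 to 38932 and 36024 to 39750 (*Cd68* 0.15). Osteoblast markers summed to 2169379 to 2647022 in Control and 1917053 to 2139974 in LS1, without overlap, and *Col1a1* (-0.19, groups apart), the most abundant, makes up most of that sum. Of the 5 osteoblast markers 3 were lower and 2 higher in mean, with a median of -0.04, *Bglap* at -1.10 with groups apart, *Dmp1* at -0.04, *Sp7* at 0.05 and *Alpl* at 0.20. Osteoclast markers summed to 286000 to 398068 and 240785 to 413621 (*Ctsk* 0.03). No marker of these 9 lists was at 0 in all libraries. No gene of any list passed limma at an adjusted p under 0.05, while DESeq2 called 4 chondrocyte markers, *Col10a1* and *Bglap*. The part of these cell markers in the higher values of *Slc2a1*, *Pgk1*, *Egln3*, *Bnip3* and *Hif1a* was not tested.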

How the data were processed

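The table holds 1 value per gene and library. The authors aligned with HISAT2 2.0.2 against GRCm38, made gene counts with featureCounts 1.4.6 on Ensembl 84 and used DESeq2; the strand setting is not given in the sources used here. The deposited unit is a signal, the read count divided by 1 size factor per library, and 0 columns were left unused. Dividing by the value of 1 read returned whole reads (within 0.01) for 100% of values, although in Control 1 this value, 1.01, was too close to 1 for a check.

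LS1 was compared with Control by limma 3.58.1 in R 4.3.3 (trend, robust) on log2(value + 1) for 19308 genes whose mean was 20 reads or more, with Benjamini-Hochberg adjustment at 0.05. The study's own tool, DESeq2 (1.42.0), and edgeR 4.0.16 were run on recovered reads as alternatives, besides limma-voom, TMM scaling, other filters and pseudocounts, a replicate block and each library left out. Added pseudogene copies (at least 200 aligned bases at 90% identity), a fit on 5 libraries and the *Xist* covariate were chosen after seeing the data. The code was tested on simulated data. GENCODE M21 (GRCm38) gave symbols and coordinates (98.9% of identifiers matched), and promoters from RefSeq (GRCm38.p6).

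The members and lists were chosen with earlier results of these data known. Named genes are the 10 members, the 5 genes of most similar profile and the most abundant gene per length of each list in Control. Also named are list genes with an adjusted p under 0.05. Up to 3 list genes in each direction with the smallest unadjusted p under 0.05 and groups that do not overlap are named too. P-values rest on 3 mice per line, named as biological replicates in the labels.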

Additional observations from a re-analysis of the deposited data

How the results depend on the processing

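None of the 18 alternative settings called any of the 10 genes or of the 70 other pathway genes at an adjusted p under 0.05, and 9 of the 10 genes kept the higher mean in LS1 under all of them. The exception, *Ankrd37*, had the opposite sign without Control 2 (0.043) and without LS1 3 (0.027), and ranged from -0.26 to 0.043 with 1 library left out. The smallest adjusted p of a member was 0.052, for *Slc2a1* with DESeq2, and the values of *Slc2a1* ranged from 0.052 to 0.49 over the alternatives.

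The count over all genes, 14 (2 higher in LS1), depended more on the setting. It was 7 with edgeR, 8 with limma-voom, 9 with a filter of at least 100 reads, 5 with edgeR on the 5 libraries other than Control 1, and 456 (276 higher) with DESeq2. The cause was not tested. Leaving out 1 library gave 5 to 324 calls: 9 without Control 1, 5 without Control 2, 46 without LS1 1 and 324 (226 higher) without LS1 3. Under the replicate block, in which libraries with the same letter were paired, the count was 12. Deviations of same-numbered libraries from their group means correlated at 0.05, 0.02 and 0.22, which gives no evidence that the numbers pair the mice.

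With 68803249 reads in the smallest library, the members had means of at least 389 reads, and libraries of the same line differed by more than counting noise (chi-square per degree of freedom of 38.6 to 145).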

Other observations

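*Gm11814*, a processed pseudogene related to *Ldha* (chr4:10438815-10439743, minus strand, GRCm38), was singled out after its values were seen. It aligns to *Ldha* with 92.2% identity over 638 bases. Its normalized counts were 344, 3426 and 277 in Control and 7247, 364 and 286 in LS1. Control 2 and LS1 1 were thus high and the other 4 libraries low, a split that follows neither the line nor the *Xist* level, and the highest library was 20.5 times the median. *Ldha* itself had its lowest value of the 6 in Control 2 (66192).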
